A study of Mus musculus with 12 samples.

Results

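The insulin-like growth factor (IGF) system was followed in whole mouse hearts after acute myocardial infarction (AMI). The 10 genes described are the 2 ligands *Igf1* and *Igf2*, the 2 receptors *Igf1r* and *Igf2r*, and the 6 binding proteins *Igfbp2*, *Igfbp3*, *Igfbp4*, *Igfbp5*, *Igfbp6* and *Igfbp7*. They were chosen by symbol from the 53801 genes of the count and TPM tables as the IGF family, with earlier results of these data known though no threshold on a value was used, and 10 of 10 were found and passed the filter on low counts that left 15306 genes to test. All hearts came from male C57BL/6N mice 10 to 14 weeks of age with no engineered allele named in the labels, operated through a left thoracotomy under isoflurane. Sham hearts, hearts 1 day after ligation of the left anterior descending artery (day 1 AMI) and hearts 7 days after it (day 7 AMI) were sequenced, with 4 hearts and 4 libraries in each group. The labels give no day for the sham hearts. Ligation was permanent and the whole heart was sequenced, so infarct, border and remote muscle are mixed in each library.

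IGF1 and IGF2 are secreted growth factors that act mainly through IGF1R, a receptor tyrosine kinase, whereas IGF2R, the cation-independent mannose 6-phosphate receptor, takes up IGF2 for degradation and has no kinase. The binding proteins hold the ligands in blood and tissue, can block or prolong their action, and release them when proteases cut the binding protein. In the heart, IGF signaling is known for its part in cardiomyocyte growth and survival, and macrophages and fibroblasts are known local sources of IGF1.

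The libraries held 23204551 to 32166517 counts each. Mitochondrial transcripts took 17.9% to 27.4% of counts in sham hearts, 12.1% to 15.9% on day 1 and 13.2% to 19.2% on day 7. The factors of edgeR's TMM normalization, which corrects for a few transcripts dominating a library, were 0.781 to 0.917, 1.01 to 1.06 and 1.10 to 1.17. The summed level of 10 cardiomyocyte markers was 96695 to 113043 CPM in sham hearts, 59356 to 73196 on day 1 and 50291 to 58519 on day 7, and no marker of the 11 cell type lists examined was at 0 in every library of a group. Sham replicate 2 stood apart in erythroid markers, at 4482 CPM against 492 to 1185 in the other sham hearts. Counts are given as CPM after TMM, and levels of different genes are compared in TPM, which allows for transcript length. A gene was called differentially expressed (a DEG) when edgeR's quasi-likelihood test over the 15306 genes gave a false discovery rate (FDR, Benjamini-Hochberg) below 0.05 and its fold change (FC) was at least 2. A gene with an FDR below 0.05 and a smaller FC is said to have passed the FDR alone. Both AMI groups are compared with the same 4 sham hearts, so those 2 comparisons share their controls.

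The DNA upstream of the 3 members that were DEGs on day 7 is shown, since the data bear on how far these genes rise together. The sequences are the 250 bases before the RefSeq start in GRCm38.p6, 5′ to 3′ along the gene. Capitals mark matches, on either strand, to any of 5 motifs: the motif GGGCGG of the GC box, the motif TATAAA of the TATA box, the motif CCAAT, the motif TGANTCA of AP-1 factors and the motif CACGTG of the E-box. No marked match overlaps another. The *Igf1* window lies at chr10:87860861-87861110 on the plus strand, that of *Igfbp2* (the first of its 2 RefSeq starts) at chr1:72824230-72824479 on the plus strand and that of *Igfbp7* at chr5:77408046-77408295 on the minus strand. The *Igf1* window is inside the gene as annotated in GENCODE M21 (chr10:87858265-87937042), so it precedes the RefSeq start but not the GENCODE start.
Igf1: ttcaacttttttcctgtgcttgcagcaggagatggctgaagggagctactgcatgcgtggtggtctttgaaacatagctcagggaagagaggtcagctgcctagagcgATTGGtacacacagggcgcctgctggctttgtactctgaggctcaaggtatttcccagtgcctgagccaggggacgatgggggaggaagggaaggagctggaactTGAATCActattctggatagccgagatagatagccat
Igfbp2: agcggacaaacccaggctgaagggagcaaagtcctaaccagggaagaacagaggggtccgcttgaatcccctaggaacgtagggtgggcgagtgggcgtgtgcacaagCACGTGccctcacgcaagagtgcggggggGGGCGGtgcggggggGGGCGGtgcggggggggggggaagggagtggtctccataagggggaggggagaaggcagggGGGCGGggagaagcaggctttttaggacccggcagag
Igfbp7: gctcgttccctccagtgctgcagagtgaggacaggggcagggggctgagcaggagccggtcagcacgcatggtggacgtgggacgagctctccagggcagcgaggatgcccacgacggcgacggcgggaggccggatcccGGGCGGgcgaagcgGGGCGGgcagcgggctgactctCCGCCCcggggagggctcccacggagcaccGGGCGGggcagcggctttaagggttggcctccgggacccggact

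The *Igf1* window held 1 CCAAT box, on the opposite strand, and 1 AP-1 site. The *Igfbp2* window held 3 GC boxes and 1 E-box, and the *Igfbp7* window 4 GC boxes, 1 of them on the opposite strand. The window of the second *Igfbp2* start (chr1:72825137-72825386), not shown, held 1 AP-1 site, 0 GC boxes and 0 E-boxes. No motif searched was in all 3 windows shown. The GC content was 52.8% for *Igf1*, 67.2% for *Igfbp2* and 74.0% for *Igfbp7*, against a median of 52.4% over 32851 promoters of the same length, of which 95.1% were lower than *Igfbp7*. Of those promoters, 32.7% held the GC box, 12.4% the TATA box, 33.8% the CCAAT box, 6.75% the AP-1 site and 6.02% the E-box. All 10 members were matched in the RefSeq table. These matches describe letters in the windows only.

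*Igf1* and *Igfbp7* both rose stepwise from sham through day 1 to day 7, reaching FCs of 4.47 and 4.36 on day 7, and *Igfbp2* went from near absence to a low but clear level on day 7. *Igfbp3* was higher at both times and *Igfbp4* and *Igfbp5* on day 7, while *Igfbp6* fell on day 1 and was near the sham level on day 7. The receptors differed little between groups. *Igf2* was lower after AMI by TMM-normalized counts but did not pass by TPM.

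**Figure D1:**
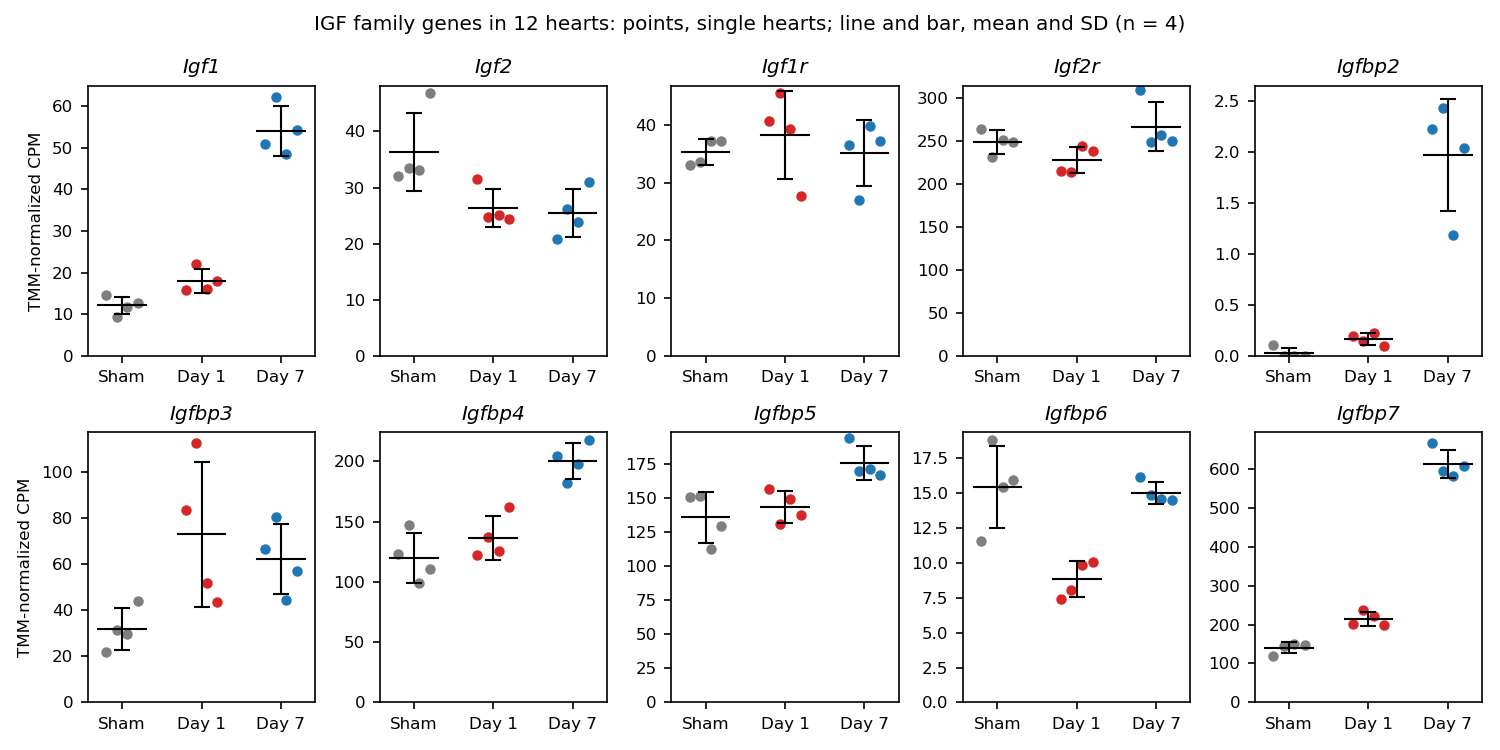
TMM-normalized level (CPM, linear axis from 0 in each panel) of the 10 genes in each of the 12 hearts, with the mean and SD of the 4 hearts of each group (sham, day 1 AMI, day 7 AMI). The 4 day 7 hearts lie above all others for *Igf1* (48.4 to 62.1 CPM) and *Igfbp7* (583 to 666 CPM), and the day 1 hearts lie below all others for *Igfbp6* (7.42 to 10.03 CPM).

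On day 1, 2 of the 10 members were DEGs with higher levels (*Igfbp2* and *Igfbp3*) and 0 with lower, beside 7.79% of all tested genes higher and 2.98% lower. *Igfbp2* passed the filter on low counts only through the day 7 hearts, so in a fit of sham and day 1 hearts alone it was not tested, and 1 of the 9 members tested there (*Igfbp3*) was a DEG. The counts that include *Igfbp2*, at both times, are therefore given as a description. By FDR, with or without the FC, 4 members were higher and 2 lower, beside 22.0% and 19.9% of all genes, and 4 did not pass. In 2 members all day 1 hearts lay above all sham hearts and in 2 below, beside 19.6% and 17.1% of all genes. On day 7, 3 members were DEGs with higher levels (*Igf1*, *Igfbp2* and *Igfbp7*) and 0 with lower, beside 15.3% and 5.88% of all genes. By FDR, 6 were higher and 1 lower than in sham hearts, beside 30.9% and 28.4% of all genes, and the same 6 and 1 did not overlap, beside 28.3% and 24.7%. Between day 7 and day 1, *Igf1*, *Igfbp2* and *Igfbp7* were again the DEGs with higher levels and 0 were lower, beside 8.55% and 2.69% of all genes. By FDR, 7 members were higher on day 7 than on day 1 and 0 lower, beside 24.2% and 22.8% of all genes, and the same 7 did not overlap, beside 23.5% (20.9% lower). With 10 genes, the DEG counts against sham lie near these backgrounds, and the members are read here gene by gene. The median log2 FC of the members was 0.15, 0.55 and 0.42 in the 3 comparisons, beside -0.01, 0.03 and 0.02 over all genes. Each member was also compared by exact permutation of the log2 CPM of 4 hearts against 4 (two-sided), and every comparison without overlap had p = 0.0286, the smallest such a test allows.

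**Figure D2:**
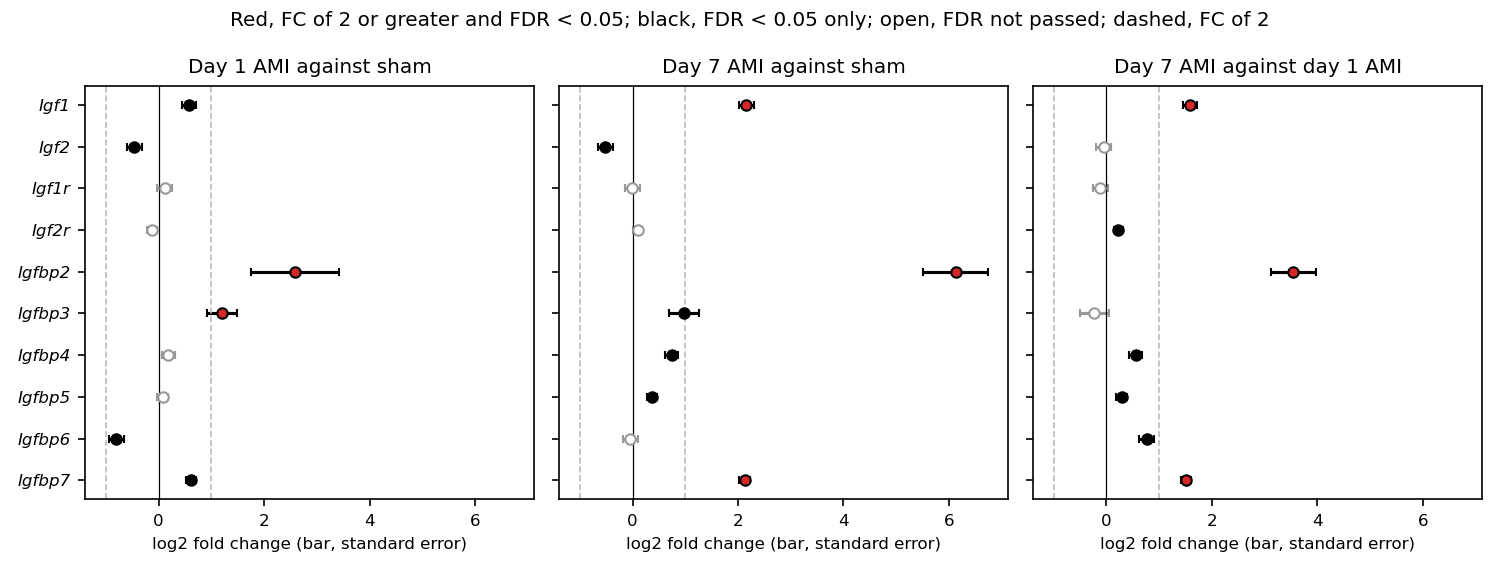
Log2 FC with its SE (edgeR, TMM) of each member in the 3 comparisons (day 1 AMI with sham, day 7 AMI with sham, and day 7 AMI with day 1 AMI); red points are DEGs, black points passed the FDR alone and open points passed neither. *Igfbp2* has the largest value and the widest error, and the negative *Igf2* values against sham are at 0.03 and 0.05 when TPM are tested instead.

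*Igf1* (chr10:87858265-87937042, plus strand) encodes the ligand that growth hormone induces in liver and that many tissues make locally. *Igf1* was at 14.5, 9.45, 11.8 and 12.7 CPM in the 4 sham hearts, at 15.8, 22.1, 16.1 and 18.004 CPM on day 1 and at 50.9, 62.1, 48.4 and 54.3 CPM on day 7. The groups did not overlap at any step, with the lowest day 7 heart more than 2 times above the highest day 1 heart. The log2 FC was 0.58 (SE 0.139, FDR 0.00458) on day 1 and 2.16 (SE 0.141, FDR 5.00e-08) on day 7, and between day 7 and day 1 it was 1.58 (SE 0.135, FDR 1.10e-06). Each FC passed the FDR in every one of the 5 scalings compared, from 0.57 to 0.86 on day 1 and from 2.14 to 2.57 on day 7.

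*Igf2* (chr7:142650766-142666816, minus strand) encodes the ligand that dominates fetal growth and is imprinted. *Igf2* was at 32.03, 33.6, 33.2 and 46.8 CPM in the 4 sham hearts, at 31.5, 24.7, 25.1 and 24.4 CPM on day 1 and at 20.9, 26.3, 23.9 and 30.95 CPM on day 7. The sham hearts lay above the others, sham replicate 4 far above, with day 1 replicate 1 just under them. Its log2 FC was -0.46 (SE 0.143, FDR 0.0184) on day 1 and -0.51 (SE 0.144, FDR 0.00662) on day 7, and -0.05 (FDR 0.797) between the AMI groups. These 2 negative FCs were small, and they depend on the scaling. With library totals alone they were -0.19 (FDR 0.312) and -0.11 (FDR 0.529), and with limma on log2(TPM + 1) they were 0.03 (FDR 0.847) and 0.05 (FDR 0.750). Under both scalings the median of all genes lay at 0.26 to 0.27 on day 1 and at 0.43 to 0.47 on day 7, against -0.01 and 0.03 by TMM, and relative to that median *Igf2* was lower by all of them, by 0.24 or more on day 1 and by 0.42 or more on day 7 on the log2 scale. Without sham replicate 4 the day 1 FDR was 0.0681, and without day 1 replicate 2 it was 0.0516. In GENCODE M21, 62.8% of the exon bases of *Igf2* are shared with a protein-coding gene on the same strand, *Gm49394*. That symbol was not among the 53801 genes counted. With the antisense gene *Igf2os*, which had 1 to 17 counts, 1.71% are shared. How reads in shared bases were counted is not given in the sources used here.

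The ratio of the ligands shifted accordingly. Counts on *Igf1* divided by counts on *Igf2* of the same heart were 0.340 ± 0.0840 in sham hearts (range 0.271 to 0.453), 0.694 ± 0.165 on day 1 (0.503 to 0.895) and 2.15 ± 0.317 on day 7 (1.75 to 2.44), with no overlap between any 2 groups. This ratio does not depend on how libraries are scaled. In TPM, *Igf1* made up 20.1 ± 2.32% of the summed ligand level in sham hearts, 31.1 ± 9.81% on day 1 and 58.1 ± 5.58% on day 7 (SD, n = 4). *Igf2* was thus the more abundant ligand transcript in all sham and day 1 hearts and *Igf1* in all day 7 hearts. On day 1 the TPM share spread from 20.5% to 40.9% and overlapped that of sham hearts (17.6% to 22.2%).

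*Igf1r* (chr7:67952827-68233668, plus strand), the signaling receptor, stayed between 26.9 and 45.5 CPM in the 12 hearts. The means were 35.2 ± 2.26 CPM in sham hearts (SD, n = 4), 38.2 ± 7.53 on day 1 and 35.1 ± 5.64 on day 7, and the groups overlapped. The log2 FC was 0.12 on day 1 (SE 0.143, FDR 0.531), 0.00 on day 7 (SE 0.143, FDR 0.983) and -0.12 between the AMI groups (FDR 0.502). With library totals alone or with TPM it passed the FDR against sham, at 0.39 and 0.47 on day 1, where the median gene was at 0.26 and 0.27, and at 0.39 and 0.43 on day 7, where the median gene was at 0.43 and 0.47 on the log2 scale.

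*Igf2r* (chr17:12682406-12769664, minus strand), the clearance receptor, was at 264, 230.4, 250.5 and 248 CPM in sham hearts, at 214, 214, 244 and 238 CPM on day 1 and at 309, 248.9, 257 and 249.95 CPM on day 7. Day 7 replicate 1 was higher than the other 11 hearts, and both AMI groups overlapped the sham hearts. By edgeR its log2 FC was -0.13 on day 1 (FDR 0.268) and 0.10 on day 7 (FDR 0.342). Between day 7 and day 1 it was 0.23 (SE 0.0878, FDR 0.0470), which passed the FDR alone. Under RLE size factors that FDR was 0.0643, and without day 7 replicate 1 it was 0.156. With library totals alone and with TPM the value between the AMI groups was 0.35 (FDR 0.00476) and 0.45 (FDR 0.00134). The median gene was there at 0.15 and 0.19. The day 7 value against sham also passed the FDR under those scalings, at 0.50 (FDR 1.73e-04) and 0.64 (FDR 3.21e-05), where the median gene was at 0.43 and 0.47.

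*Igfbp2* (chr1:72824503-72852474, plus strand) encodes a binding protein that also carries an integrin-binding motif. It had 2, 0, 0 and 0 counts in the 4 sham hearts, 5, 5, 7 and 3 counts on day 1 and 72, 63, 32 and 60 counts on day 7. As CPM, these were 0.104, 0, 0 and 0 in sham hearts, 0.191, 0.149, 0.229 and 0.0946 on day 1 and 2.22, 2.43, 1.18 and 2.04 on day 7. The day 7 hearts stood clear of all others, and sham replicate 1 lay above day 1 replicate 4. Every sham heart was below 3 counts, the floor taken for a library. The pooled level, counts over TMM-scaled library size, was 84.03 (exact 95% interval 22.996 to 698) times that of sham hearts on day 7 and 6.97 (exact 95% interval 1.69 to 61.5) times on day 1, with intervals that cover counting error only. Between day 7 and day 1 the ratio was 12.05 (exact 95% interval 7.62 to 20.1). *Igfbp2* passed the filter on low counts only through the day 7 hearts, so its FDRs are given as a description. By edgeR they were 1.49e-06 on day 7, 0.0231 on day 1 and 1.76e-05 between the AMI groups. The fitted log2 FCs against sham (6.12 on day 7 and 2.58 on day 1) depend on the prior count. With limma on log2(TPM + 1) they were 1.95 and 0.23 (FDR 0.253 on day 1). The day 1 call rested on 20 counts against 2. Without sham replicate 2, 3 or 4 or day 1 replicate 3 its FDR was 0.0537 to 0.0622, and the exact permutation test gave p = 0.0571.

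*Igfbp3* (chr11:7206086-7213923, minus strand) encodes the main IGF carrier of blood, which forms a complex with the acid-labile subunit. *Igfbp3* was at 21.9, 31.4, 29.9 and 43.99 CPM in the 4 sham hearts, at 83.8, 113, 51.8 and 43.7 CPM on day 1 and at 66.8, 80.6, 44.7 and 57.3 CPM on day 7. The AMI hearts were spread widely, day 1 replicates 1 and 2 well above replicates 3 and 4, and day 1 replicate 4 lay just below the highest sham heart. The log2 FC was 1.20 (SE 0.282, FDR 0.00394) on day 1, an FC of 2.30, with an exact permutation p of 0.0571. On day 7 it was 0.97 (SE 0.281, FDR 0.00834) without overlap, which passed the FDR and fell just short of an FC of 2. Without day 1 replicate 2 the day 1 value was 0.91 (FDR 0.0144), below the FC minimum. Day 7 and day 1 did not pass as different (log2 FC -0.23, FDR 0.517).

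*Igfbp4* (chr11:99041244-99054392, plus strand) encodes a binding protein that mostly restrains IGF action and is the known substrate of the protease PAPP-A. *Igfbp4* was at 123, 148, 99.04 and 110.3 CPM in the 4 sham hearts, at 122, 137, 125 and 162 CPM on day 1 and at 205, 182, 198 and 218 CPM on day 7. The day 7 hearts lay above all others, and sham and day 1 hearts overlapped. In the edgeR fit its log2 FC was 0.19 on day 1 (FDR 0.235), 0.74 (SE 0.122, FDR 1.24e-04) on day 7 and 0.55 (SE 0.122, FDR 0.00198) between the AMI groups.

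*Igfbp5* (chr1:72857932-72874884, minus strand) encodes a binding protein that attaches to extracellular matrix. *Igfbp5* was at 150.5, 151, 112 and 129 CPM in the 4 sham hearts, at 156, 130.5, 149 and 137 CPM on day 1 and at 194, 169, 171 and 166 CPM on day 7. The day 7 hearts were the highest, by a small margin. The log2 FC was 0.08 on day 1 (FDR 0.564), 0.37 (SE 0.101, FDR 0.00601) on day 7 and 0.29 (SE 0.101, FDR 0.0288) between the AMI groups. The last of these did not pass without day 1 replicate 2 (FDR 0.0824), day 1 replicate 4 (0.0682) or day 7 replicate 1 (0.0818). *Igfbp5* and *Igfbp2* are neighbours on chromosome 1, tail to tail with 5457 bases between them.

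*Igfbp6* (chr15:102144362-102149511, plus strand) encodes the binding protein that prefers IGF2 over IGF1. *Igfbp6* was at 11.6, 18.8, 15.4 and 15.9 CPM in the 4 sham hearts, at 7.42, 8.06, 9.88 and 10.03 CPM on day 1 and at 16.2, 14.8, 14.6 and 14.5 CPM on day 7. The day 1 hearts were the lowest 4 of the 12, and the sham and day 7 hearts overlapped. Its log2 FC was -0.80 (SE 0.140, FDR 5.47e-04) on day 1, -0.04 (FDR 0.818) on day 7 and 0.76 (SE 0.139, FDR 5.21e-04) between the AMI groups. The day 1 fall passed the FDR in all 5 scalings, from -0.45 to -0.81. The summed levels of markers of endothelial cells (1491 to 1680.3, 1207 to 1262 and 1696 to 1880.2 CPM in sham, day 1 and day 7 hearts) and of pericytes and smooth muscle (1208 to 1361, 815 to 985 and 1290.1 to 1530.3 CPM) were also lowest on day 1. The endothelial list had a median log2 FC of -0.25 on day 1, with 4 of 10 markers lower by FDR and 0 higher. The pericyte and smooth muscle list was divided, with a median of 0.27 and 3 of 9 lower (*Rgs5* at -0.84, *Abcc9* at -0.91 and *Kcnj8* at -0.50) and 2 higher (*Cnn1* and *Cspg4*), and its lower sum lay in the abundant *Rgs5* and *Abcc9*. Their part in the fall was not tested, and in whole hearts fewer cells of a type and less RNA per cell cannot be told apart.

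*Igfbp7* (chr5:77349240-77408041, minus strand) encodes a secreted protein that binds IGFs weakly and is found in vessel walls. *Igfbp7* was at 119, 146, 151 and 147 CPM in the 4 sham hearts, at 202, 237, 221 and 198 CPM on day 1 and at 666, 595, 583 and 607 CPM on day 7. The groups did not overlap at any step, and sham replicate 1 was the lowest heart. The log2 FC was 0.61 (SE 0.0931, FDR 2.14e-04) on day 1, 2.12 (SE 0.0965, FDR 2.82e-09) on day 7 and 1.51 (SE 0.0945, FDR 6.24e-08) between the AMI groups. Its fit had the smallest SE of the binding proteins on day 7, and the day 7 value was 2.10 to 2.67 in the 5 scalings. Of its exon bases, 7.03% overlap *Polr2b* on the opposite strand, which had 987 to 2009 counts in a library against 2277 to 21613 on *Igfbp7*, and the strand that was counted is not given in the sources used here.

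**Figure D3:**
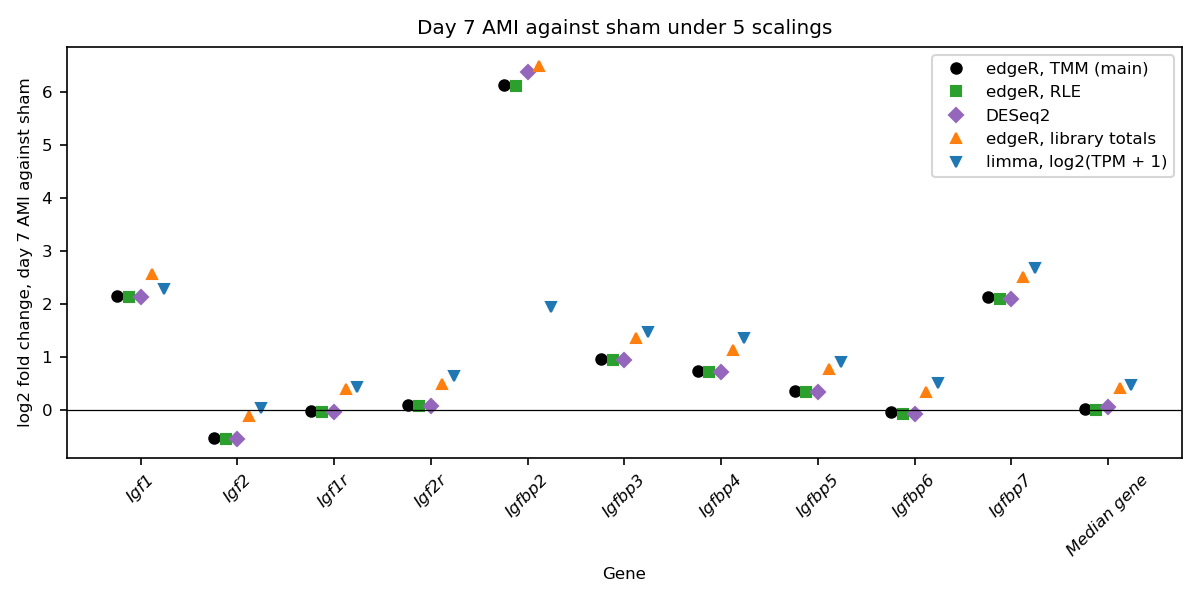
Log2 FC of the 10 genes and of the median gene, day 7 AMI against sham, under 5 scalings or tools (TMM, RLE size factors, library totals alone, DESeq2, and limma on log2(TPM + 1)). All values move up under library totals, where the median gene is at 0.43. Under TPM, where it is at 0.47, all move up except *Igfbp2*, which falls from 6.12 to 1.95. *Igf1*, *Igfbp2* and *Igfbp7* stay the 3 highest under each. *Igf2* crosses 0 only under TPM, and *Igf1r* and *Igfbp6* cross 0 under library totals and TPM.

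Markers of other cells moved with the day 7 rise. The summed level of 10 fibroblast markers was 2496 to 2872 CPM in sham hearts, 2545 to 3569 on day 1 and 8038 to 15395 on day 7, and on day 7 against sham 6 of 10 were DEGs higher and 1 lower. The 8 markers of activated fibroblasts summed to 124 to 246, 286 to 563 and 1870.1 to 3513 CPM, with 7 of 8 DEGs higher on day 7. The 12 macrophage and monocyte markers summed to 322 to 515, 614 to 879 and 908 to 1397 CPM, with 10 of 12 DEGs higher on day 7 against sham and 0 of 12 between day 7 and day 1. The cardiomyocyte markers moved the other way, with 7 of 10 DEGs lower on day 7. The part of these cells in the changes of *Igf1*, *Igfbp2*, *Igfbp3*, *Igfbp4*, *Igfbp5* and *Igfbp7* was not tested.

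Within a heart, *Igfbp7* was the most abundant of the 10 transcripts and *Igfbp4* the next in every group. In sham hearts the mean TPM was 181 ± 28.6 for *Igfbp7* (SD, n = 4), 58.6 ± 15.8 for *Igfbp4* and 31.1 ± 0.9498 for *Igf2r*. *Igf2r*, *Igfbp5*, *Igfbp6*, *Igf2* and *Igfbp3* followed in that order, from 31.1 down to 16.1 TPM, and each overlapped its neighbour. *Igf1r* and *Igf1*, at 4.26 ± 0.940 and 4.13 ± 0.511 TPM, overlapped each other and lay below them, and *Igfbp2* was last at 0.035 TPM. On day 1, *Igfbp3* moved to the third place at 45.99 ± 19.7 TPM, overlapping *Igf2r* at 35.7 TPM. On day 7, *Igfbp7* reached 1149.9 ± 94.4 TPM and *Igfbp4* 149.9 TPM, *Igf2r*, *Igfbp5* and *Igfbp3* overlapped at 46.2 to 49.3 TPM, and *Igf1*, at 23.8 ± 2.0001 TPM, overlapped *Igfbp6* and stood above *Igf2* at 17.3 ± 3.03 TPM. *Igfbp2* stayed last at 3.07 ± 0.924 TPM.

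The 6 binding proteins summed to 301 ± 45.3 TPM in sham hearts (245 to 355), 522 ± 39.2 on day 1 (492 to 579) and 1426 ± 109 on day 7 (1299 to 1544), without overlap. Most of the increase lay in *Igfbp7*, which rose from 60.1 ± 4.20% of the sum in sham hearts to 65.8 ± 2.10% on day 1 and 80.6 ± 0.883% on day 7. The share of *Igfbp4* went from 19.4% to 16.2% and 10.5%, and that of *Igfbp6* from 6.58% to 2.74% and 1.99%. Binding-protein TPM was 14.6 ± 1.45 times ligand TPM in sham hearts, 21.1 ± 0.957 times on day 1 and 34.7 ± 2.62 times on day 7. These are sums of RNA levels, in which the weak binder *Igfbp7* counts as much as the others. By TPM the median gene was itself higher than in sham hearts, by 0.27 on day 1 and 0.47 on day 7 on the log2 scale. The summed TPM are not corrected for this, whereas the shares and the ratio to ligand TPM do not depend on it.

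**Figure D4:**
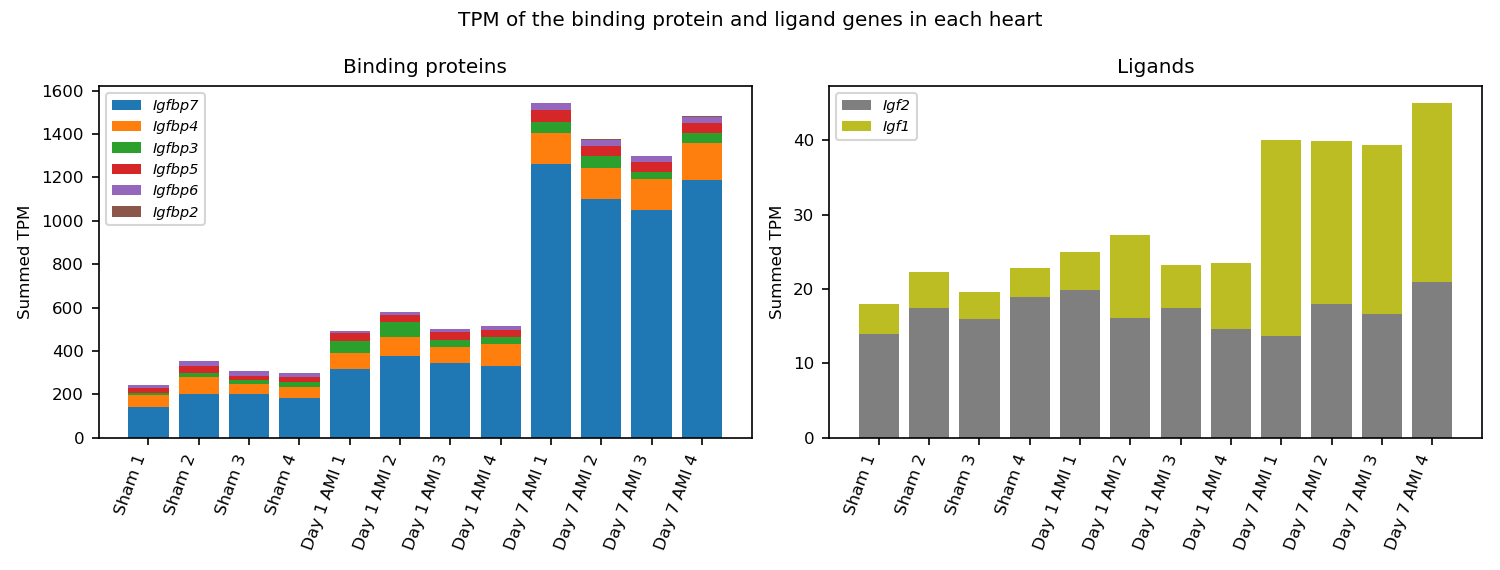
TPM (linear axis from 0) of the 6 binding proteins, stacked, and of the 2 ligands, stacked, in each of the 12 hearts. The binding-protein bars reach 1299 to 1544 TPM on day 7, mostly *Igfbp7*, against 245 to 355 TPM in sham hearts, and *Igf1* is the larger part of the ligand bar in the 4 day 7 hearts. Bar heights are not corrected for the median gene, which by TPM was 0.47 higher on day 7 than in sham hearts (log2 scale).

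The genes with the profile most like each DEG among the members were found by the root mean square difference of log2 CPM, centred on the gene's mean, over the 12 hearts. For *Igf1* these were *Mybl1* (0.19), *Col6a2* (0.21) and *Gpsm2* (0.22), with 43 genes within 0.3. For *Igfbp7* they were *Cpxm1* (0.15), *Col6a2* (0.15) and *Scarf2* (0.16), with 116 genes within 0.3, so many genes share this stepwise profile. For *Igfbp2* they were *Mki67* (0.26), *Prc1* (0.32) and *Dlgap5* (0.34), and only *Mki67* was within 0.3. *Igfbp2* had 0 to 2 counts in sham hearts and 3 to 7 on day 1. Its log2 CPM there depends largely on the prior count of 2, and so does its likeness to these genes. For *Igfbp3* they were *Gstcd* (0.29), *Bmp2* (0.29) and *Qsox1* (0.29), with 4 genes within 0.3. Among the members, the closest pairs were *Igf2r* with *Igfbp5* (0.18), *Igfbp4* with *Igfbp5* (0.23) and *Igf1* with *Igfbp7* (0.23). The hearts of a group share their surgery and time, so these values describe likeness over 3 clusters of hearts.

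Around the members, 42 other genes of the IGF pathway were examined, of which 39 were tested. *Igfbp1*, the liver binding protein, was at 0 in every library, and *Pappa2* and *Igf2bp1* were under the filter. On day 1, 2 of the 39 were DEGs higher and 0 lower, on day 7 again 2 and 0, and between the AMI groups 1 and 0. Among all genes the DEG shares were 7.79% higher and 2.98% lower, 15.3% and 5.88%, and 8.55% and 2.69%. By FDR, 8 were higher and 18 lower on day 1, 8 higher and 15 lower on day 7, and 7 higher and 9 lower between the AMI groups. All genes tested stood at 22.0% higher and 19.9% lower, 30.9% and 28.4%, and 24.2% and 22.8%. With library totals alone the pathway counts were 11 and 4, 20 and 8, and 13 and 5, beside 41.1% and 6.93%, 53.8% and 10.8%, and 31.2% and 14.2% of all genes. With TPM (36 tested) they were 13 and 1, 19 and 2, and 13 and 2, beside 43.9% and 5.15%, 62.7% and 7.24%, and 35.6% and 9.28% of all genes. In the pathway the balance of directions turned with the scaling, from more genes lower by TMM to more higher with library totals and TPM. Over all genes more were higher than lower under each of these, by a wider margin with library totals and TPM.

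Of the 39 pathway genes, 2 proteases that cut binding proteins had the largest log2 FCs on day 7 against sham. *Adam12*, a metalloprotease known to cut IGFBP3 and IGFBP5, was at 0.522, 0.575, 1.41 and 0.622 CPM in sham hearts, at 14.6, 25.9, 17.3 and 14.2 CPM on day 1 and at 48.9, 25.4, 14.1 and 22.2 CPM on day 7. Every AMI heart lay more than 10 times above every sham heart, and the day 1 and day 7 hearts overlapped. By edgeR its log2 FC was 4.53 (SE 0.437, FDR 1.20e-05) on day 1 and 5.15 (SE 0.437, FDR 3.92e-07) on day 7. *Pappa*, the metalloprotease of IGFBP4, was at 0.574, 1.89, 0.776 and 0.669 CPM in sham hearts, at 1.26, 1.52, 1.37 and 1.14 CPM on day 1 and at 13.7, 7.38, 2.95 and 3.47 CPM on day 7. It rose on day 7, most in replicates 1 and 2, with a log2 FC of 2.78 (SE 0.484, FDR 1.99e-04) against sham and 2.38 (SE 0.456, FDR 7.49e-04) against day 1, and on day 1 it was 0.41 (FDR 0.550). Of the stanniocalcins, which inhibit PAPP-A, *Stc2* was at -0.69 on day 1 (FDR 6.24e-04) and -0.34 on day 7 (FDR 0.0266), the latter turning to 0.06 with library totals and 0.20 with TPM. *Stc1* was at 0.92 (FDR 0.0269) and 0.59 (FDR 0.118). *Htra1*, a secreted serine protease, was at -0.50 (FDR 0.00379) and -0.10 (FDR 0.468), the latter turning to 0.30 and 0.43 under those scalings.

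Of the 7 genes of the insulin receptor and the adaptors below both receptors, 2 were higher and 4 lower by FDR on day 7 against sham. The shares of all genes there were 30.9% and 28.4%. None of the 7 reached an FC of 2 in any comparison by TMM. *Grb10*, an adaptor that dampens signaling, had a log2 FC of 0.26 (SE 0.0818, FDR 0.0195) on day 1 and 0.75 (SE 0.0821, FDR 3.57e-06) on day 7, and *Shc1*, which links the receptors to Ras, 0.56 (SE 0.0971, FDR 5.03e-04) and 0.74 (SE 0.0972, FDR 1.79e-05). Both rose in all 5 scalings and were DEGs on day 7 with library totals (1.15 and 1.13) and TPM (1.24 and 1.18). *Insr*, the insulin receptor, was at -0.32 on day 1 (FDR 0.00711) and -0.63 on day 7 (FDR 1.54e-05), but with TPM it was at 0.05 (FDR 0.639) and 0.00 (FDR 0.963). *Grb14* was at -0.51 (FDR 0.0131) and -0.83 (FDR 2.66e-04), *Irs1* at -0.41 (FDR 0.0387) and -0.42 (FDR 0.0257) and *Gab1* at -0.23 (FDR 0.0594) and -0.37 (FDR 0.00378). With TPM none of these 3 passed on day 7. *Irs2* was at 0.28 (FDR 0.381) and -0.07 (FDR 0.825).

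Of the 17 genes of the PI3K and AKT branch, which carries the growth and survival signal, 2 were higher and 9 lower by FDR on day 1, 1 higher and 7 lower on day 7, beside the shares of all genes given above. By TMM 0 were DEGs, while on day 7 against sham 1 was a DEG lower with RLE size factors and with DESeq2, and 1 a DEG higher with library totals and with TPM. With TPM the counts by FDR were 5 and 1 on day 1, and 10 and 2 on day 7. Of the 5 genes of the growth hormone axis, which induces *Igf1* in liver, 1 was higher and 3 lower on day 1. On day 7, 2 were higher and 3 lower, with 0 lower at both times by TPM. The shares of all genes were 22.0% and 19.9% on day 1 and 30.9% and 28.4% on day 7. Of the 2 other IGF carriers tested, 1 was lower on day 1 and 0 changed on day 7. Among the RNA-binding proteins of *Igf2* mRNA and *H19*, the noncoding RNA next to *Igf2*, 1 of 3 was higher at each time. That was *Igf2bp2* on day 1, at 12.5, 17.9, 10.2 and 7.82 CPM against 6.10, 5.71, 4.66 and 2.53 CPM in sham hearts, without overlap and with a log2 FC of 1.35 (SE 0.310, FDR 0.00340). On day 7 it was *H19*, at 85.9, 56.4, 38.1 and 51.3 CPM against 24.9, 43.4, 18.2 and 33.6 CPM in sham hearts, with overlap, a log2 FC of 0.95 (SE 0.253, FDR 0.00501) and an exact permutation p of 0.0571.

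**Figure D5:**
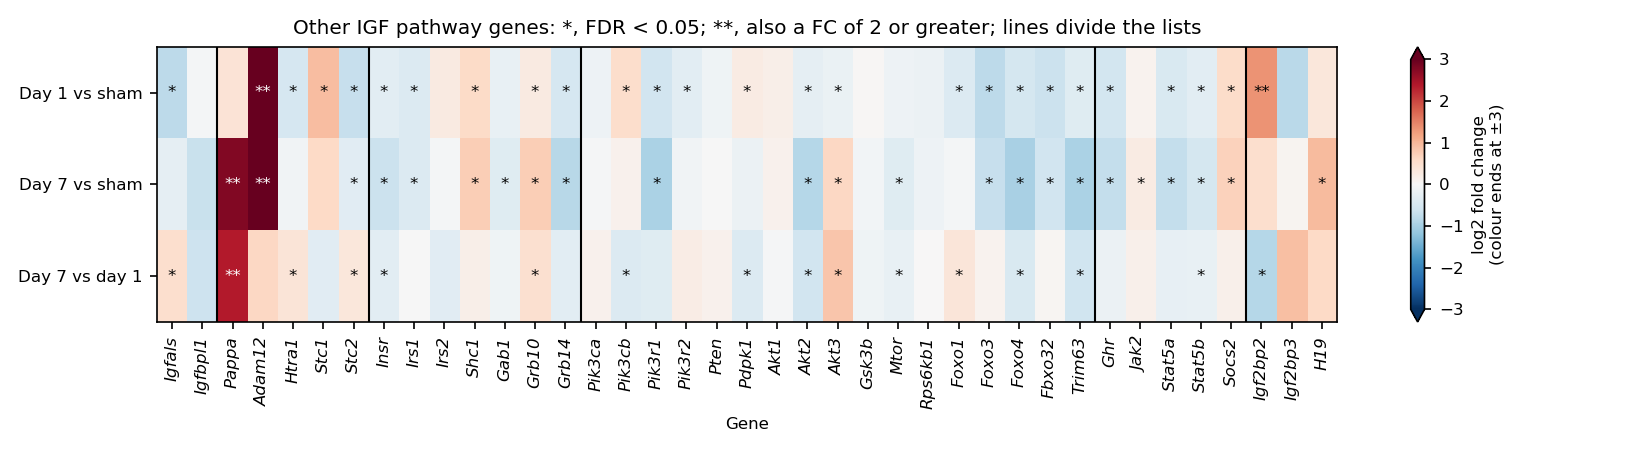
Log2 FC (edgeR, TMM; color scale) of the tested genes of the IGF pathway lists in the 3 comparisons, with stars for genes that passed the FDR. *Adam12* (both times against sham) and *Pappa* (day 7) are the strongest cells; most others are within 1 log2 unit of 0, and the small negative values turn toward or past 0 when library totals or TPM are used (15 lower by FDR on day 7 against sham, 8 with library totals and 2 with TPM).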

How the data were processed

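RNA sequencing of 12 whole mouse hearts, 4 each after sham surgery, on day 1 and on day 7 after AMI, was re-analysed, with groups and replicate numbers taken from the labels. The labels name no batch. Paired-end reads of 150 bp were trimmed by the authors (Cutadapt) and aligned with STAR 2.4.0j to Ensembl GRCm38. The authors deposited raw counts, whole numbers of reads on each of 53801 genes without normalization, and TPM from RSEM. The counting tool and the strand are not given in the sources used here.

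Counts were normalized with TMM, filtered with filterByExpr and tested with edgeR 4.0.16 (R 4.3.3) by the quasi-likelihood test in a single fit of the 12 libraries, with Benjamini-Hochberg adjustment over 15306 genes. The SE is that implied by the F statistic, and log2 CPM used a prior count of 2. Members were tested a further time by exact permutation of 4 hearts against 4, two-sided. Exact intervals and the floor of 3 counts cover counting error only. Depth was 23204551 to 32166517 counts per library. Positions are from GENCODE M21 (GRCm38) and upstream sequences from RefSeq (GRCm38.p6).

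Alternatives were RLE size factors, library totals alone, TMM without mitochondrial genes, no filter, DESeq2 1.42.0, limma 3.58.1 on log2(TPM + 1) and on log2(TPM + 0.1) (genes of at least 1 TPM in at least 4 libraries), a fit of only the groups compared, a replicate block, no FC minimum, and each heart left out. On simulated counts for day 1 AMI against sham, with 15306 genes, edgeR recovered 98 of 100 genes changed 2-fold and 100 of 100 changed 3-fold, with 9 false calls. Libraries of a group differed from each other by more than sampling noise (chi-square per degree of freedom at least 8.84 over 18 pairs). Nothing in the labels says that hearts of one number share a mouse, so p-values measure the spread between these hearts.

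The members and the lists of pathway and marker genes were chosen with earlier results of these data known. The genes named are the members, the pathway lists by count with values for DEGs, adaptors and proteases, and the 3 genes with the profile closest to each member called as a DEG. *H19*, *Igfbp1*, *Pappa2*, *Igf2bp1* and the genes that overlap a member are named beside them, *H19* and 5 pericyte and smooth muscle markers after their values were seen. No protein sequences were used here. Plots were made in Python 3.11.15 using matplotlib 3.10.9.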

Additional observations from a re-analysis of the deposited data

Results flagged for a closer look

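In a group of 4 hearts, 1 heart was far from the other 3 by Dixon's criterion in 5 of the 30 sets of values examined (10 genes in 3 groups). The nominal rate is about 1 in 20, but the 10 genes share the same hearts. The 5 are therefore given as a description. *Igf2* was at 46.8 CPM in sham replicate 4 against 32.03 to 33.6 in the other sham hearts, and at 31.5 CPM in day 1 AMI replicate 1 against 24.4 to 25.1. *Igf2r* was at 309 CPM in day 7 AMI replicate 1 against 248.9 to 257. *Igfbp2* was at 0.104 CPM (2 counts) in sham replicate 1 and at 0 in the other 3 sham hearts, where any count in the remaining heart meets the criterion. *Igfbp7* was at 119 CPM in sham replicate 1 against 146 to 151. Sham replicate 1 also had the largest mitochondrial share, 27.4%, and the lowest TMM factor, 0.781, and their part in its *Igfbp7* value was not tested.

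The effect of AMI differed between day 7 and day 1 in 7 of the 10 genes, tested directly as day 7 AMI against day 1 AMI with edgeR at an FDR below 0.05, since both effects are taken against the same sham hearts. By that FDR, 24.2% of all genes tested were higher on day 7 than on day 1 and 22.8% lower. The 7 include *Igfbp2*, which passed the filter on low counts only through the day 7 hearts. The difference on the log2 scale was 3.54 for *Igfbp2*, 1.58 for *Igf1*, 1.51 for *Igfbp7*, 0.76 for *Igfbp6*, 0.55 for *Igfbp4*, 0.29 for *Igfbp5* and 0.23 for *Igf2r*. The *Igfbp6* difference joined a fall on day 1 to a day 7 level that did not pass as different from sham. Leaving out 1 heart ended the call for *Igfbp5* (FDR up to 0.0824) and for *Igf2r* (up to 0.156).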

How the results depend on the processing

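The count of members called as DEGs was 2 on day 1 against sham, 3 on day 7 against sham and 3 on day 7 against day 1. On day 1 it was 1 with limma on log2(TPM + 1) and 1 in a fit of only the groups compared, where *Igfbp2* was lost (in the latter it was not among the 9 members tested), and 6 with no FC minimum. On day 7 against sham it was 5 with library totals alone, 5 with limma on log2(TPM + 1) and 5 on log2(TPM + 0.1), with *Igfbp3* and *Igfbp4* added, and 7 with no FC minimum. On day 7 against day 1 it was 7 with no FC minimum. Over all genes, higher DEGs on day 7 against sham were 2346 of 15306 in the main fit and 3633 of 15306 with library totals. With log2(TPM + 1) and log2(TPM + 0.1) they were 2666 and 3575 of 13716. The counts with no FC minimum stand beside the FDR shares of all genes given with the results. Leaving out each heart gave 1 to 2 calls on day 1 (1 without sham replicate 2, 3 or 4 or day 1 replicate 3, each losing *Igfbp2*, and 1 without day 1 replicate 2, losing *Igfbp3*), 3 to 4 on day 7 against sham (4 without sham replicate 4 or day 7 replicate 3 or 4, each adding *Igfbp3*) and 3 to 3 on day 7 against day 1.

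Signs turned only in genes whose change was small or not called. On day 1 against sham, *Igf2r* turned to 0.15 with library totals and to 0.19 with both TPM pseudocounts, *Igf2* to 0.0344 with log2(TPM + 1) and 0.0362 with log2(TPM + 0.1), and *Igfbp5* ran from -0.0038 (without sham replicate 3) to 0.133 (without sham replicate 2). On day 7 against sham, *Igf1r* turned to 0.39 with library totals and 0.43 and 0.51 with TPM, *Igfbp6* to 0.35, 0.51 and 0.53, and *Igf2* to 0.0502 and 0.0525 with TPM. On day 7 against day 1, *Igf2* turned to 0.0808 with library totals and 0.0158 and 0.0163 with TPM, *Igf1r* to 0.0072 with library totals, and *Igfbp3* to 0.0669 and 0.0695 with TPM. Leaving out hearts moved *Igfbp6* from -0.16 to 0.0664 and *Igf1r* from -0.0710 to 0.10 on day 7 against sham, and *Igf2* from -0.16 to 0.0406 and *Igfbp3* from -0.41 to 0.0581 on day 7 against day 1. Library totals and TPM move the median gene, as given with the results, and whether the remaining change is one of scaling was not tested. Of the values of single genes, 271 under other settings and 344 with a heart left out kept their direction and their side of the call, 19 and 8 turned sign, 6 and 3 gained a call, and 3 and 5 lost it.

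The replicate numbers did not pair the hearts (correlation of deviations of same-numbered hearts -0.24 to 0.23 over 12 pairs). With a replicate block the counts were 2, 3 and 3, and no member's call as a DEG changed, though the FDR of *Igf2r* between the AMI groups went to 0.0642. Depth limits *Igfbp2*, which had 3 to 7 counts on day 1 and 0 to 2 in sham hearts.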

Other observations

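The number of counts per TPM of a gene, taken relative to the median gene of the library, shows how evenly the 2 deposited tables weigh its transcripts. Over the 12 hearts this quantity varied by 18.0% (CV) for *Igf1*, from 0.927 in sham replicate 2 to 1.83 in day 7 AMI replicate 2, a spread wider than that of 97.2% of 9854 genes with at least 100 counts in every library. The median gene varied by 3.75%. *Igf1r* varied by 12.1%, *Igf2* by 8.31% and *Igfbp4* by 4.24%, while *Igf2r*, *Igfbp3*, *Igfbp5*, *Igfbp6* and *Igfbp7* varied by less than 1%. *Igf1* has 8 annotated transcripts, *Igf2* 9 and *Igf1r* 6. The sham and day 7 hearts each held both high and low *Igf1* values, 0.927 to 1.48 and 1.27 to 1.83, and no isoform values were analysed here. The *Igf1* call on day 7 was made with both tables.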
